A study of Homo sapiens with 9 samples.

Results

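The genes described here are the human zinc transporters of the SLC30 and SLC39 families, the metallothioneins of the MT1 and MT2 group, and MTF1, the transcription factor that senses zinc. They were taken by gene symbol, and all 33 symbols were found among the 58395 Ensembl genes in the count files: 10 SLC30 genes, 14 SLC39 genes, 8 metallothioneins and MTF1. RNA was sequenced from MDA-MB-231 cells, an established human line of triple-negative breast cancer grown in DMEM with serum, 96 h after reverse transfection of siRNA. The SKP2-2 group received the second SKP2 siRNA, the SKP2-1 group the first SKP2 siRNA and the NC group a nontargeting siRNA, with 3 libraries in each group. SKP2 is the F-box subunit that brings p27 and other proteins to the SCF ubiquitin ligase. The series title and the labels of the SKP2-2 and SKP2-1 libraries name SKP2, and those of the NC libraries name only NC. The short design text, however, speaks of ZIP7, which is the protein of SLC39A7, a gene of this set. All groups share the same cell line and the transfection itself. Whether libraries of a group came from separate cultures is not in the labels, and each p-value therefore reflects only how far these libraries spread, which may be technical.

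SLC30 proteins (ZnT) move zinc out of the cytosol, across the plasma membrane or into organelles, and SLC39 proteins (ZIP) move it into the cytosol. Metallothioneins are small cysteine-rich proteins that bind zinc, copper and cadmium. When cytosolic zinc rises, MTF1 binds metal response elements in promoters and raises transcription of metallothionein genes and of SLC30A1. In mouse and zebrafish MTF1 is also known as a repressor of the importer gene Slc39a10.

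The 8 metallothionein genes lie together on chromosome 16, from the start of MT2A at 56608199 to the end of MT1X at 56684196 (GENCODE 29 on GRCh38, matched by gene identifier; the build used by the authors is not given in the sources used here). The promoters below are shown because they hold matches to the core of the element that MTF1 reads, in genes whose RNA levels differed widely. The genes are MT2A and MT1X from the cluster, MT1H from the same cluster with no counts, and SLC30A1. Each is the 250 bases before the RefSeq start on GRCh38.p14, 5′ to 3′ on the gene's strand, with matches to the element core in capitals. The core was searched as TGCACNC and TGCGCNC on both strands, so matches on the other strand read as GNGTGCA or GNGCGCA, and matches were allowed to overlap.
MT2A, chr16:56608334-56608583, plus strand: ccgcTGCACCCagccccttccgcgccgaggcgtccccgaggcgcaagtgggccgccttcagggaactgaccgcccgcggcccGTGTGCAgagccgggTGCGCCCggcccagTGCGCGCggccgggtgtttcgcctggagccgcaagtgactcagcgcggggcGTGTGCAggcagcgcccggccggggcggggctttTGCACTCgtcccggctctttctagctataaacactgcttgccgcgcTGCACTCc
MT1X, chr16:56682220-56682469, plus strand: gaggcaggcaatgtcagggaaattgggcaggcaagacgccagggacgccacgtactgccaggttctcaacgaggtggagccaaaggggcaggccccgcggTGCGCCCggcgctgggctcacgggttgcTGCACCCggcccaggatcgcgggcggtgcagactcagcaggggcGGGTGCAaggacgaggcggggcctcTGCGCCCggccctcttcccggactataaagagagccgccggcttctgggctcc
MT1H, chr16:56669564-56669813, plus strand: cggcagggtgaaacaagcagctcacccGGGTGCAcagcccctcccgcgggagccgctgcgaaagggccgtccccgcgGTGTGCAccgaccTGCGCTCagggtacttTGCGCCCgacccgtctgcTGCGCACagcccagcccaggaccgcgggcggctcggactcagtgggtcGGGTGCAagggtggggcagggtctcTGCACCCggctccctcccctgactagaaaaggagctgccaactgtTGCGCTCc
SLC30A1, chr1:211579162-211579411, minus strand: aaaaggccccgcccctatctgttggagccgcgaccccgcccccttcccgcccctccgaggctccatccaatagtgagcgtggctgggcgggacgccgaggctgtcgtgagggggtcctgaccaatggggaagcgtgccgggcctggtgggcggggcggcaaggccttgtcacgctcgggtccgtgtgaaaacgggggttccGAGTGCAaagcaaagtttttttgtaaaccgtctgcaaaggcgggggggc

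MT1H held 8 matches, MT2A 7 and MT1X 4, against 1 in SLC30A1. Of all 35116 RefSeq promoters of the same length, 24.8% held at least 1 match, 0.37% at least 4, 0.031% at least 7 and 0.017% at least 8. RefSeq promoters were found for 25 of the 33 genes, in 34 windows because some genes have several. No window was found for MT1A, MT1E, MT1F, MT1G, MT1M, SLC30A8, SLC39A4 and SLC39A14. Among the 21 transporter genes found, 10 held a match in some window, and the highest number was 3. The window of MTF1 itself held none. The SLC30A1 window ends at 211579162, upstream of its GENCODE 29 gene start at 211578742, and the bases between were not searched. A match is a run of letters and not a measured binding site.

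The libraries held 35.5 to 49.9 M counts in genes. SKP2 averaged 5.96 ± 0.236 CPM (read counts per M of TMM-scaled library size) with SKP2-2, 3.58 ± 0.307 CPM with SKP2-1 and 62.1 ± 3.99 CPM in NC (SD, n = 3 each). It was 10.4 times lower with SKP2-2 and 17.3 times lower with SKP2-1 than in NC, with no overlap between the groups. Of 6 markers of the line, VIM averaged 2942 CPM with SKP2-2, 2824 CPM with SKP2-1 and 2734 CPM in NC and passed with neither siRNA. Of the other 5, 2 rose and 2 fell with SKP2-2 (log2 fold change -0.61 for FN1), and 3 rose and 2 fell with SKP2-1 (0.80 for FN1 and -1.15 for AXL). The hormone receptor genes ESR1 and PGR stayed at or below 0.233 CPM on average in each group, as in triple-negative cells. The 7 luminal markers summed to 353 to 366 CPM with SKP2-2, 336 to 354 CPM with SKP2-1 and 219 to 230 CPM in NC. Of the 5 that were tested, 2 rose and 1 fell with SKP2-2, and 3 rose with SKP2-1, where 49.4% and 45.5% of all tested genes passed in either direction. The sums of the immune markers were 4.71 to 4.99 CPM with SKP2-2, 5.66 to 6.38 CPM with SKP2-1 and 2.90 to 3.57 CPM in NC. Among the 3 tested immune markers, 2 rose with SKP2-2 and 3 with SKP2-1. The 5 endothelial markers summed to 7.94 to 9.50 CPM with SKP2-2, 15.7 to 17.4 CPM with SKP2-1 and 7.11 to 8.19 CPM in NC. Among the 2 tested, 1 rose with SKP2-2 and 2 with SKP2-1. The 4 fibroblast markers summed to 14.0 to 19.1 CPM with SKP2-2, 24.6 to 27.6 CPM with SKP2-1 and 25.3 to 40.3 CPM in NC, mostly from COL1A1 (8.79 CPM with SKP2-2, 16.0 CPM with SKP2-1 and 23.6 CPM in NC). Of the 3 tested, LUM rose and COL1A1 fell with SKP2-2, and LUM and PDGFRB rose with SKP2-1. The part of these markers in the results below was not tested. On the third principal component, with 11.6% of the variance, SKP2-2 replicate 3 and NC replicate 1 lay at -14.6 and -30.3, and SKP2-2 replicate 1 and NC replicate 3 at 21.7 and 21.2.

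Of the 33 genes, 25 had enough counts to be tested, and 19 of these passed an adjusted p of 0.05 in at least 1 of the comparisons (edgeR quasi-likelihood test, Benjamini-Hochberg adjustment over all 16575 genes tested). With SKP2-2 against NC, 5 rose and 10 fell, on a background in which 49.4% of all tested genes passed, 25.2% upward and 24.1% downward. With SKP2-1 against NC, 8 rose and 4 fell, on a background of 45.5%, made of 25.0% upward and 20.5% downward. Against SKP2-1, the SKP2-2 libraries were higher for 6 genes and lower for 13, on a background of 50.5%, made of 25.2% higher and 25.3% lower. Median log2 fold changes of the 25 genes were -0.01 for SKP2-2 against NC, 0.07 for SKP2-1 against NC and -0.21 for SKP2-2 against SKP2-1, where those of all tested genes were 0.03, 0.02 and 0.03. Groups did not overlap for 16 of the 25 genes between SKP2-2 and NC, for 16 between SKP2-1 and NC and for 23 between SKP2-2 and SKP2-1, where 53.6%, 54.8% and 64.0% of all tested genes did not overlap. The shares called were thus near the background for SKP2-1 against NC (48.0%) and above it, with no test of that difference, for SKP2-2 against NC (60.0%) and against SKP2-1 (76.0%). Both siRNA groups were compared with the same NC libraries. In bulk RNA, fewer cells that express a gene and less RNA per cell cannot be told apart.

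**Figure D1:**
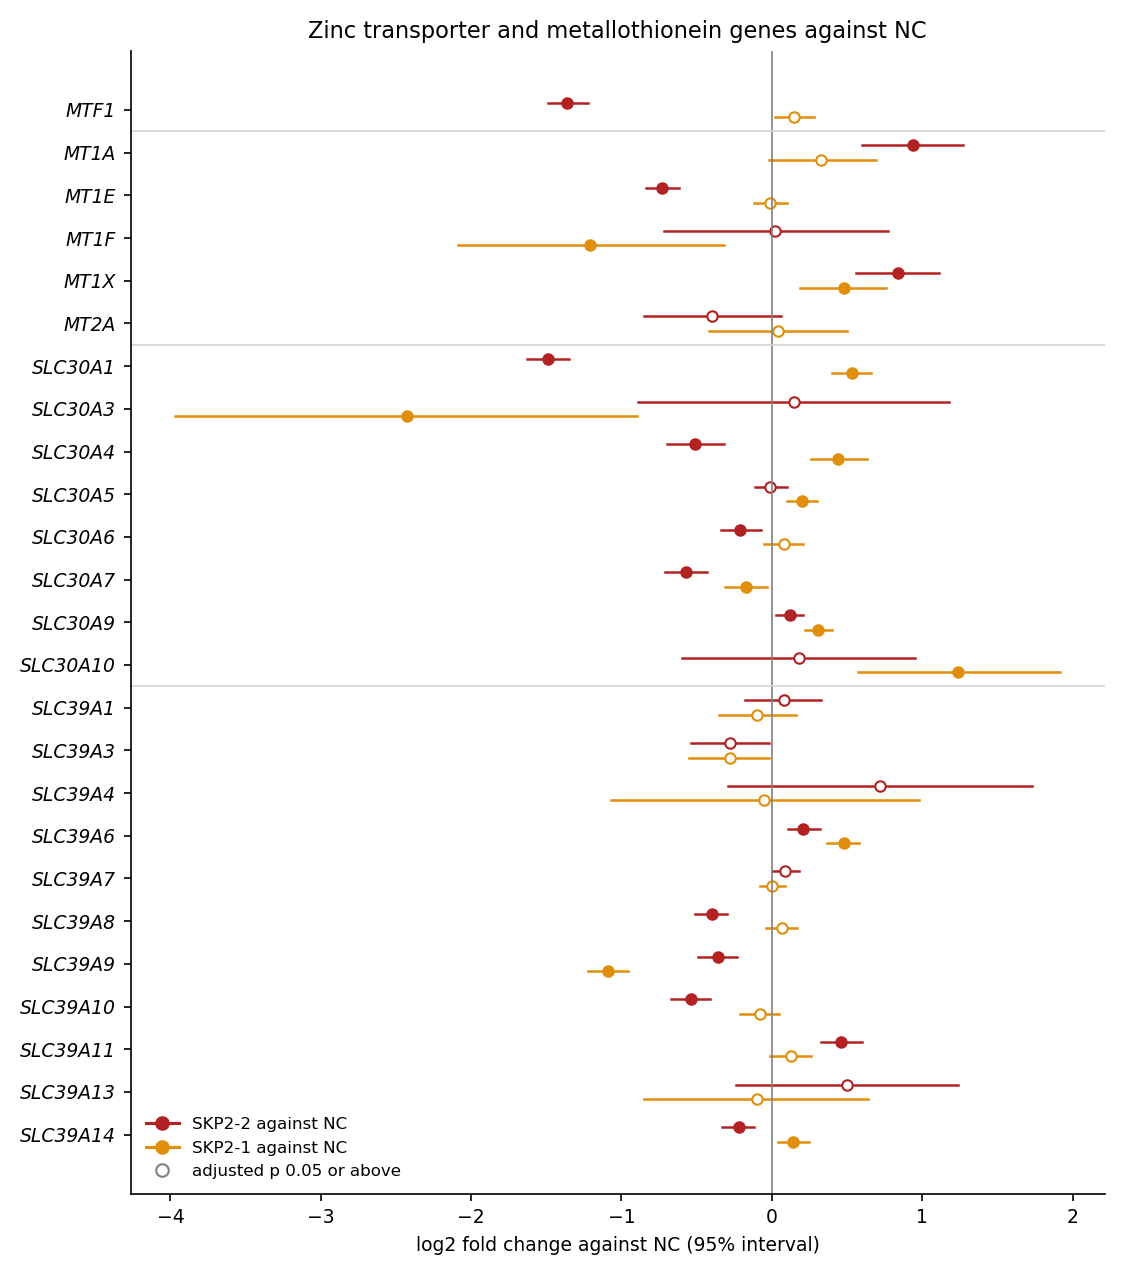
Log2 fold changes against NC for the 25 tested genes (x axis), with 95% intervals, for SKP2-2 (red) and SKP2-1 (orange). Filled points passed an adjusted p of 0.05. MTF1 and SLC30A1 lie at -1.36 and -1.49 with SKP2-2 and at 0.15 and 0.53 with SKP2-1.

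MTF1, the zinc sensor (ENSG00000188786, chromosome 1, 37809567 to 37859620), fell with SKP2-2. Its level was 21.9, 21.0 and 19.9 CPM in the SKP2-2 libraries, 59.5, 60.3 and 59.0 CPM in the SKP2-1 libraries and 49.1, 54.0 and 57.7 CPM in the NC libraries. All SKP2-2 libraries lay below all others, and the SKP2-1 libraries lay just above NC. MTF1 was 2.56 times lower with SKP2-2 than in NC (log2 fold change -1.36, SE 0.06, adjusted p = 2.03e-09). That change was the 228th lowest of 16575, and 3.55% of all tested genes fell by more than 1 on the log2 scale in this comparison. With SKP2-1 the log2 fold change was 0.15 (95% interval 0.02 to 0.28, adjusted p = 0.0566). Without NC replicate 3 it was 0.21 (adjusted p = 0.0102), and over all alternatives the adjusted p lay between 0.0102 and 0.232. Directly compared, SKP2-2 was 2.85 times lower than SKP2-1 (log2 difference -1.51, adjusted p = 6.18e-10).

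SLC30A1 encodes ZnT1, the plasma membrane exporter and a classic MTF1 target (ENSG00000170385, chromosome 1, 211571568 to 211578742). It had 27.9, 27.2 and 31.7 CPM with SKP2-2, 119, 116 and 116 CPM with SKP2-1, and 76.8, 79.5 and 87.0 CPM in NC. The groups did not overlap, with SKP2-2 below NC and SKP2-1 above it. Its level with SKP2-2 was 2.80 times lower than in NC (log2 fold change -1.49, 95% interval -1.63 to -1.35, adjusted p = 1.09e-09). Its level with SKP2-1 was 1.44-fold higher than in NC (0.53, interval 0.40 to 0.66, adjusted p = 1.19e-05). Between the siRNAs, SKP2-2 was 4.05 times lower than SKP2-1 (-2.02, SE 0.06, adjusted p = 6.83e-11). SLC30A1, SLC30A4 and SLC39A14 were the 3 genes of the set called in opposite directions with the siRNAs, though the rise of SLC39A14 with SKP2-1 was lost in 10 of 17 alternatives. Of all tested genes, 6.64% were, and 4.39% were lower with SKP2-2 and higher with SKP2-1 as these are.

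**Figure D2:**
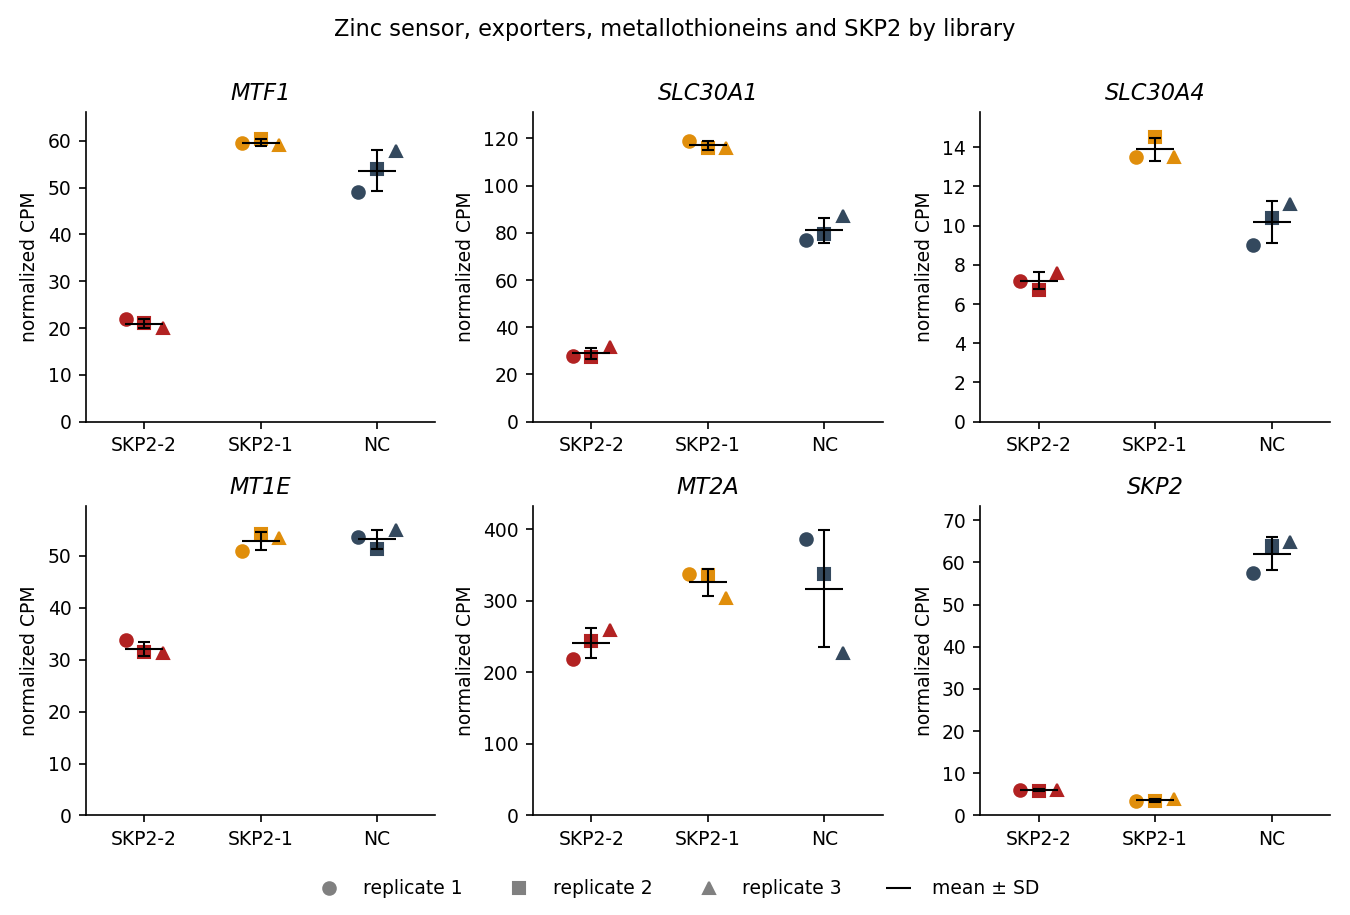
Normalized CPM (y axes, each from 0) in every library of SKP2-2, SKP2-1 and NC for MTF1, SLC30A1, SLC30A4, MT1E, MT2A and SKP2, with bars for the mean ± SD of 3 libraries. MTF1 averages 20.9 CPM with SKP2-2, 59.6 CPM with SKP2-1 and 53.6 CPM in NC, and the NC points of MT2A spread from 387 down to 227 CPM.

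Of the 5 metallothioneins tested, 2 rose and 1 fell with SKP2-2 against NC (median log2 fold change 0.02). With SKP2-1 against NC, 1 rose and 1 fell (0.04). Between the siRNAs, 3 were higher and 1 lower with SKP2-2 than with SKP2-1 (0.36, the value of MT1X). Of all tested genes, 49.4%, 45.5% and 50.5% passed in these comparisons, with no test of the difference. Of the 3 higher than with SKP2-1, MT1X (adjusted p = 0.0269) was lost in 7 of 17 alternatives. MT1F (1.23, adjusted p = 0.0228) was lost in 4 of the 16 in which it was tested. MT1A (0.60, adjusted p = 0.00445) held in every alternative. MT1E (ENSG00000169715, chromosome 16, 56625475 to 56627112) had 33.7, 31.4 and 31.3 CPM with SKP2-2, 51.0, 54.3 and 53.4 CPM with SKP2-1, and 53.6, 51.3 and 54.9 CPM in NC. The SKP2-2 libraries lay below all others, while SKP2-1 and NC overlapped. MT1E fell 1.66 times with SKP2-2 (log2 fold change -0.73, SE 0.05, adjusted p = 1.04e-07), and with SKP2-1 its log2 fold change was -0.01 (95% interval -0.12 to 0.10, adjusted p = 0.903). SKP2-2 was also lower than SKP2-1 (-0.72, adjusted p = 1.04e-07).

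MT2A, the most abundant metallothionein, passed in no comparison. It had 218, 244 and 259 CPM with SKP2-2, 338, 336 and 304 CPM with SKP2-1, and 387, 337 and 227 CPM in NC. NC replicate 3 lay within the range of SKP2-2, and NC replicate 1 lay above every SKP2-1 library. The log2 fold change was -0.40 with SKP2-2 (95% interval -0.85 to 0.06, adjusted p = 0.133) and 0.04 with SKP2-1 (-0.42 to 0.50, adjusted p = 0.888). Without NC replicate 3, the value for SKP2-2 was -0.59 and passed (adjusted p = 0.000644), and without NC replicate 1 it was -0.24, in a range of adjusted p of 0.000644 to 0.34 over all alternatives. Between the siRNAs the log2 difference was -0.44 (adjusted p = 0.101), with no overlap between SKP2-2 and SKP2-1. It passed at the same size without NC replicate 3 (adjusted p = 0.00176), with those groups alone in the fit (0.00242) and with DESeq2 (0.045), within a range of 0.00176 to 0.252 over all alternatives.

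The scarce metallothioneins MT1X and MT1A were higher with SKP2-2. MT1X ranged from 2.34 to 2.71 CPM with SKP2-2, from 1.92 to 2.01 CPM with SKP2-1 and from 1.28 to 1.57 CPM in NC, with no overlap. It rose with SKP2-2 (log2 fold change 0.84, SE 0.13, adjusted p = 0.000115) and with SKP2-1 (0.48, SE 0.13, adjusted p = 0.00916), where DESeq2 gave 0.46 and an adjusted p of 0.0732, the highest over all alternatives. MT1A ranged from 1.63 to 1.91 CPM with SKP2-2, from 1.01 to 1.31 CPM with SKP2-1 and from 0.868 to 1.01 CPM in NC. It rose with SKP2-2 (0.94, SE 0.16, adjusted p = 0.000231), and with SKP2-1 its log2 fold change was 0.33 (adjusted p = 0.119). MT1F had only 10 to 19 counts per library with SKP2-2, 4 to 9 with SKP2-1 and 13 to 15 in NC. It fell with SKP2-1 (-1.21, SE 0.41, adjusted p = 0.0283), but this was lost without NC replicate 1 (-1.03), without SKP2-1 replicate 2 (-1.06), without SKP2-1 replicate 3 (-1.0) and with DESeq2 (-1.25), at adjusted p up to 0.114. Of the 50-base windows in GENCODE 29 transcripts, 7.1% of those of MT1E, 5.76% of those of MT1A, 3.02% of those of MT2A and 1.22% of those of MT1F recur in transcripts of other genes, and the gene sharing most windows is another metallothionein for each. For MT1X the share is 18.3%, and the gene sharing most windows is AC026461.1, which overlaps 321 bases of its exons on the same strand and had 0 counts. How reads from shared windows were counted is not given in the sources used here, so these values are uncertain to that extent. The remaining metallothioneins had almost no reads. MT1H had 0 counts in 390.6 M, which allows up to 0.0077 CPM by counting error alone, while MT1G had 6 counts and MT1M 4 in all libraries together.

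Summed over the 8 genes, metallothionein RNA was 257, 280 and 295 CPM with SKP2-2, 392, 393 and 360 CPM with SKP2-1, and 443, 391 and 284 CPM in NC. MT2A made up 86.8% of the sum with SKP2-2, 85.3% with SKP2-1 and 85.0% in NC, so the sum followed it, and NC replicate 3 again lay among the SKP2-2 libraries.

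Of the 8 exporter genes tested, 1 rose and 4 fell with SKP2-2 against NC, 5 rose and 2 fell with SKP2-1 against NC, and 1 was higher and 7 were lower with SKP2-2 than with SKP2-1. In these comparisons 62.5%, 87.5% and 100% of them passed, beside 49.4%, 45.5% and 50.5% of all tested genes, with no test of the difference. The median log2 fold changes of the exporters were -0.11, 0.25 and -0.34, beside 0.03, 0.02 and 0.03 for all tested genes. The summed exporter RNA was 292, 285 and 295 CPM with SKP2-2, 437, 440 and 435 CPM with SKP2-1, and 356, 378 and 400 CPM in NC. These 3 ranges did not overlap, and SLC30A1 contributed most of the distance between them.

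SLC30A4 encodes ZnT4, which loads zinc into vesicles of the trans-Golgi and endosomal system (ENSG00000104154, chromosome 15, 45479611 to 45522807). Its level was 7.20, 6.73 and 7.61 CPM with SKP2-2, 13.5, 14.5 and 13.5 CPM with SKP2-1, and 9.02, 10.4 and 11.1 CPM in NC. As for SLC30A1, all SKP2-2 libraries lay below NC and all SKP2-1 libraries above it. The fall with SKP2-2 was 1.42 times (log2 fold change -0.51, adjusted p = 0.000336) and the rise with SKP2-1 was 1.36-fold (0.44, adjusted p = 0.000884). SKP2-2 lay 1.93 times below SKP2-1 (-0.95, adjusted p = 1.12e-06).

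SLC30A5, SLC30A6 and SLC30A7 encode the transporters that supply zinc to enzymes of the early secretory pathway, ZnT5 with ZnT6 as a pair and ZnT7 alone. SLC30A7 had 69.1, 64.5 and 63.0 CPM with SKP2-2, 82.1, 90.0 and 87.6 CPM with SKP2-1, and 88.1, 98.7 and 105 CPM in NC. Only the SKP2-2 libraries were clear of NC. SLC30A7 fell 1.49 times with SKP2-2 (log2 fold change -0.57, SE 0.07, adjusted p = 8.65e-06). Its smaller fall with SKP2-1 (-0.17, SE 0.07, adjusted p = 0.0476) was lost without NC replicate 2 (-0.16) or 3 (-0.11), without SKP2-1 replicate 1 (-0.13), 2 (-0.20) or 3 (-0.18), without SKP2-2 replicate 2 (-0.17) and with the replicate number as a block (-0.17), and the adjusted p ran from 0.000335 to 0.189 across the alternatives.

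SLC30A6 had 51.8, 51.5 and 50.6 CPM with SKP2-2, 64.3, 63.5 and 60.1 CPM with SKP2-1, and 54.2, 58.2 and 65.2 CPM in NC. SKP2-2 lay below NC, and SKP2-1 within its range. It fell with SKP2-2 (log2 fold change -0.21, SE 0.06, adjusted p = 0.0137), and the value was -0.13 without NC replicate 3. With SKP2-1 it did not pass (0.08, adjusted p = 0.317) except without NC replicate 3 (0.15, adjusted p = 0.0248), and the adjusted p ran from 0.0248 to 0.905 across the alternatives. SLC30A5 had 44.1, 43.3 and 44.9 CPM with SKP2-2, 50.9, 51.1 and 50.9 CPM with SKP2-1, and 42.2, 44.8 and 46.0 CPM in NC. Only the SKP2-1 libraries stood apart, above all others. It rose with SKP2-1 (0.20, SE 0.05, adjusted p = 0.00367; 0.13 with SKP2-1 and NC alone in the fit), and with SKP2-2 the log2 fold change was -0.01 (95% interval -0.11 to 0.10, adjusted p = 0.905).

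SLC30A9, a transporter of mitochondria, had 91.1, 91.1 and 97.0 CPM with SKP2-2, 107, 104 and 106 CPM with SKP2-1, and 85.5, 85.5 and 85.2 CPM in NC. The NC libraries were the lowest and the groups did not overlap. It rose with SKP2-1 (log2 fold change 0.31, SE 0.04, adjusted p = 4.37e-05). The rise with SKP2-2 was small (0.12, SE 0.04, adjusted p = 0.0238) and was lost in 10 of 17 alternatives, RLE scaling (0.10), DESeq2 (0.10) and the replicate block (0.12) among them. It was lost without NC replicate 2 (0.12), without SKP2-2 replicate 1 (0.09) and without SKP2-2 replicate 3 (0.09), and the adjusted p ran from 0.00231 to 0.138 across the alternatives.

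Of the other exporters, SLC30A10, a manganese exporter, had 7 to 13 counts per library with SKP2-2, 18 to 24 with SKP2-1 and 7 to 10 in NC. It rose with SKP2-1 (log2 fold change 1.24, SE 0.31, adjusted p = 0.00502), and with SKP2-2 the value was 0.18 (adjusted p = 0.732). SLC30A3, the transporter of synaptic vesicles, had 8 to 12 counts with SKP2-2, 0 to 4 with SKP2-1 and 6 to 11 in NC. It fell with SKP2-1 (-2.43, SE 0.71, adjusted p = 0.0126). The value was -3.97 without SKP2-1 replicate 1 and -1.79 without SKP2-1 replicate 3, where the adjusted p was 0.0525. SLC30A3 was the exporter that was higher with SKP2-2 than with SKP2-1 (2.58, adjusted p = 0.00701), and this value rests on the same few counts (4.11 without SKP2-1 replicate 1). SLC30A2, which secretes zinc into milk, had 0 counts, and SLC30A8, the transporter of insulin granules, had 2 counts in 390.6 M.

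Of the 11 importer genes tested, 2 rose and 4 fell with SKP2-2 against NC, 2 rose and 1 fell with SKP2-1 against NC, and 2 were higher and 4 lower with SKP2-2 than with SKP2-1. In these comparisons 54.5%, 27.3% and 54.5% of them passed, beside 49.4%, 45.5% and 50.5% of all tested genes. The shares were thus near or below the background, with no test of the difference. The median log2 fold changes of the importers were 0.08, -0.05 and 0.09, beside 0.03, 0.02 and 0.03 for all tested genes. Their summed RNA, over all 14 genes, was 1169, 1221 and 1236 CPM with SKP2-2, 1185, 1179 and 1174 CPM with SKP2-1, and 1247, 1233 and 1218 CPM in NC. The SKP2-2 range overlapped those of NC and SKP2-1, and the SKP2-1 range lay below that of NC.

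SLC39A7 encodes ZIP7, which releases zinc from the endoplasmic reticulum (ENSG00000112473, chromosome 6, 33200445 to 33204439). Its level was 358, 376 and 359 CPM with SKP2-2, 344, 342 and 343 CPM with SKP2-1, and 339, 352 and 335 CPM in NC. The SKP2-2 libraries lay slightly above NC and SKP2-1 lay within it, so no group showed a lowered SLC39A7. The log2 fold change was 0.09 with SKP2-2 (95% interval 0.00 to 0.18, adjusted p = 0.0868) and 0.00 with SKP2-1 (-0.08 to 0.09, adjusted p = 0.936). With library size as the only scaling, the SKP2-2 value was 0.13 and passed (adjusted p = 0.0138), in a range of 0.0138 to 0.348 over all alternatives. Between the siRNAs the log2 difference was 0.09 (adjusted p = 0.102, range 0.0173 to 0.325), which passed in 3 of 17 alternatives. The exons of SLC39A7 share 244 bases with those of RXRB on the opposite strand, whose log2 fold changes were 0.28 with SKP2-2 and 0.18 with SKP2-1, and the strand used in counting is not given in the sources used here.

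SLC39A9 encodes ZIP9, an importer of the Golgi and plasma membrane (ENSG00000029364, chromosome 14, 69398015 to 69462388). It had 131, 131 and 124 CPM with SKP2-2, 77.0, 76.1 and 79.3 CPM with SKP2-1, and 150, 164 and 181 CPM in NC. The SKP2-1 libraries were the lowest and the groups did not overlap. SLC39A9 fell 1.28 times with SKP2-2 (log2 fold change -0.36, adjusted p = 0.000245). The fall with SKP2-1 was 2.13 times (-1.09, 95% interval -1.22 to -0.96, adjusted p = 1.17e-08). It was higher with SKP2-2 than with SKP2-1 (0.73, SE 0.06, adjusted p = 3.96e-07). It shares 373 bases of exon with ERH on the opposite strand, whose log2 fold changes were -0.24 with SKP2-2 and -0.25 with SKP2-1.

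**Figure D3:**
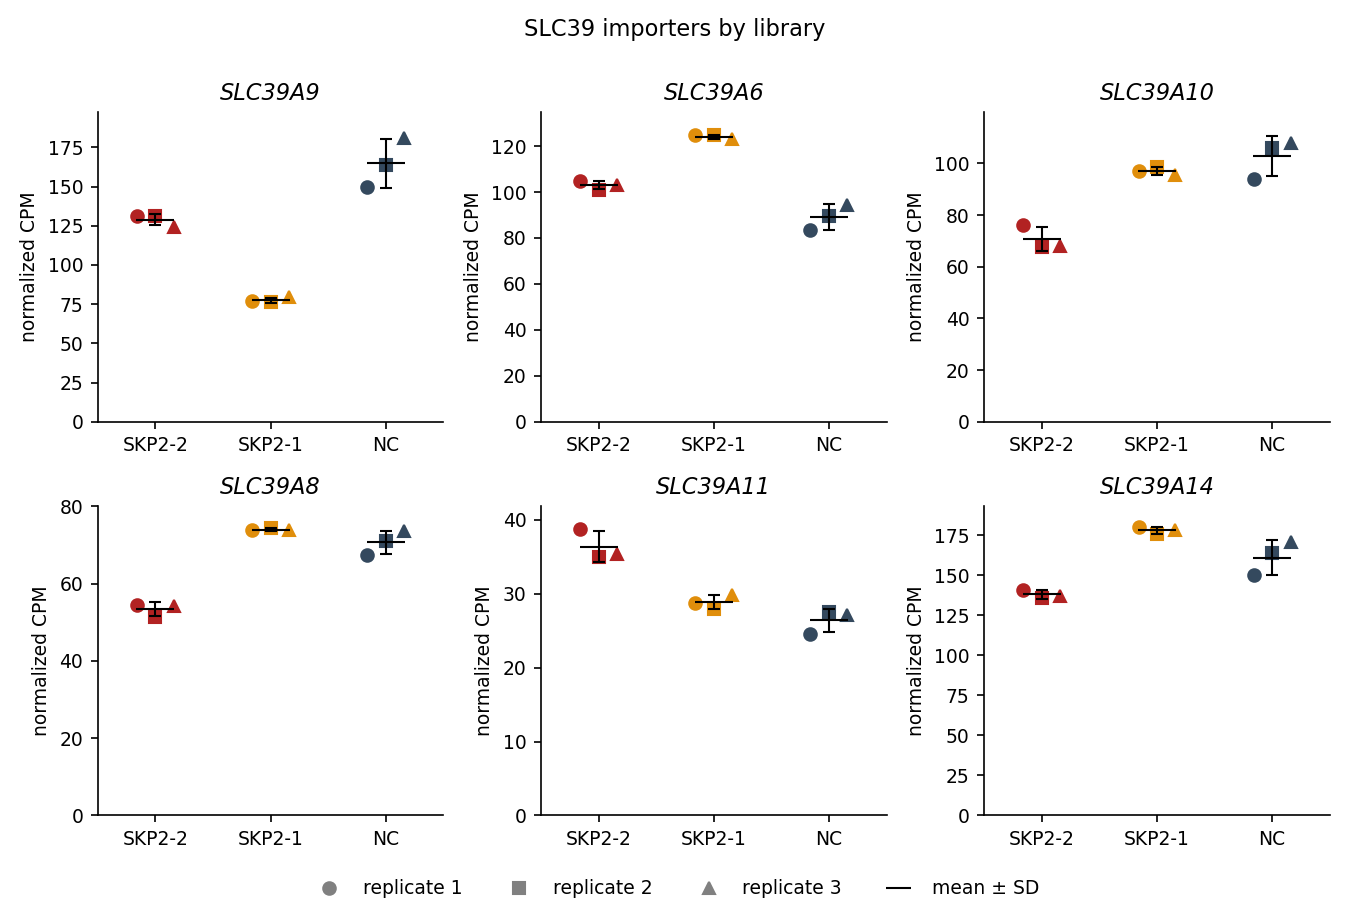
Normalized CPM (y axes, each from 0) in every library of SKP2-2, SKP2-1 and NC for 6 importers, with bars for the mean ± SD of 3 libraries. SLC39A9 averages 129 CPM with SKP2-2, 77.5 CPM with SKP2-1 and 165 CPM in NC, and SLC39A11 averages 36.4 CPM with SKP2-2, 28.9 CPM with SKP2-1 and 26.4 CPM in NC.

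SLC39A6 and SLC39A10 encode ZIP6 and ZIP10, which form a complex at the plasma membrane, and SLC39A6 is known in breast cancer as an estrogen-regulated gene. SLC39A6 had 105, 101 and 103 CPM with SKP2-2, 125, 125 and 123 CPM with SKP2-1, and 83.3, 89.7 and 94.3 CPM in NC. Every knockdown library lay above NC. It rose with SKP2-2 (log2 fold change 0.21, SE 0.05, adjusted p = 0.00241) and with SKP2-1 (0.48, SE 0.05, adjusted p = 3.12e-06). SLC39A10 had 76.0, 67.7 and 68.2 CPM with SKP2-2, 97.0, 98.7 and 95.6 CPM with SKP2-1, and 93.8, 106 and 108 CPM in NC. SKP2-2 lay below all others. It fell with SKP2-2 (-0.54, SE 0.06, adjusted p = 7.61e-06), and with SKP2-1 the value was -0.08 (adjusted p = 0.301). The SKP2-1 comparison passed without NC replicate 1 (-0.16, adjusted p = 0.0267) and without SKP2-2 replicate 1 (-0.12, adjusted p = 0.0353), in a range of 0.011 to 0.613 over all alternatives.

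SLC39A8 and SLC39A14 encode ZIP8 and ZIP14, which also carry manganese, iron and cadmium. SLC39A8 had 54.5, 51.3 and 54.3 CPM with SKP2-2, 73.8, 74.4 and 73.9 CPM with SKP2-1, and 67.5, 71.0 and 73.6 CPM in NC. It fell with SKP2-2 (log2 fold change -0.40, SE 0.05, adjusted p = 1.01e-05), the group below all others, and did not pass with SKP2-1 (0.07, adjusted p = 0.278). SLC39A14 had 141, 136 and 137 CPM with SKP2-2, 180, 176 and 178 CPM with SKP2-1, and 150, 164 and 171 CPM in NC. SKP2-2 lay below NC and SKP2-1 above it. The fall with SKP2-2 was -0.22 (SE 0.05, adjusted p = 0.00208). The rise with SKP2-1 was 0.14 (SE 0.05, adjusted p = 0.0315) and was lost in 10 of 17 alternatives: without NC replicate 1 (0.08) or 2 (0.15), without SKP2-1 replicate 1 (0.13), 2 (0.15) or 3 (0.14), and with RLE scaling (0.12) or DESeq2 (0.12) among others, with adjusted p between 0.00526 and 0.125.

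SLC39A11, a less studied importer, had 38.8, 35.0 and 35.4 CPM with SKP2-2, 28.8, 28.0 and 29.9 CPM with SKP2-1, and 24.6, 27.5 and 27.1 CPM in NC. The SKP2-2 libraries were the highest. It rose with SKP2-2 (log2 fold change 0.46, SE 0.06, adjusted p = 4.1e-05), and with SKP2-1 the value was 0.13 (adjusted p = 0.117).

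SLC39A1, SLC39A3, SLC39A4 and SLC39A13 passed in no comparison. SLC39A3, a plasma membrane importer, ranged from 3.21 to 4.05 CPM with SKP2-2, from 3.25 to 3.87 CPM with SKP2-1 and from 3.89 to 4.92 CPM in NC. Its log2 fold change was -0.28 with SKP2-2 (adjusted p = 0.0752) and -0.28 with SKP2-1 (adjusted p = 0.0744). Without NC replicate 3 it passed with SKP2-2 (-0.36, adjusted p = 0.0346) and with SKP2-1 (-0.37, adjusted p = 0.0342). Without SKP2-2 replicate 3 it passed with SKP2-2 (-0.37, adjusted p = 0.0369), and over all alternatives the adjusted p reached 0.177 for SKP2-2 and 0.241 for SKP2-1. The other 3 spread more widely among the NC and the SKP2-2 libraries than among the SKP2-1 libraries. SLC39A4, the importer of the intestine, had 9.40, 10.7 and 17.6 CPM with SKP2-2, 7.15, 7.67 and 7.40 CPM with SKP2-1, and 12.8, 5.26 and 5.14 CPM in NC. NC replicate 1 was 2.49 times the lowest NC library, and its spread on the log2 scale in NC was as large as or larger than that of 98.6% of tested genes. SLC39A13, a transporter of the secretory pathway known from a connective tissue disorder, had 61.0, 81.8 and 100 CPM with SKP2-2, 53.6, 53.3 and 53.4 CPM with SKP2-1, and 83.4, 49.8 and 39.4 CPM in NC. SLC39A1, the most widely expressed plasma membrane importer, ranged from 190 to 233 CPM with SKP2-2, from 187 to 195 CPM with SKP2-1 and from 179 to 237 CPM in NC. Of the exon bases of SLC39A1, 60.8% are shared with AL358472.7 on the same strand, a gene absent from the count files. A further overlap, 8.3%, is with CREB3L4 on the opposite strand, whose log2 fold changes were -0.53 with SKP2-2 and -0.43 with SKP2-1. The part of these overlaps in its counts was not tested.

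For these 3 genes, and for MT2A, NC replicate 1 was the highest NC library and NC replicate 3 the lowest, and SKP2-2 replicate 3 was the highest SKP2-2 library and replicate 1 the lowest. The same libraries lay at the ends of the third principal component given above. Their part in these values was not tested. With SKP2-2 the log2 fold change of SLC39A4 was 0.72 (adjusted p = 0.205), with 1.26 without NC replicate 1 (adjusted p = 0.00985) and 0.40 without SKP2-2 replicate 3 (range of adjusted p 4.21e-07 to 0.513). That of SLC39A13 was 0.50 (adjusted p = 0.231), with 0.85 without NC replicate 1 (adjusted p = 0.0227) and 0.28 without NC replicate 3 (range of adjusted p 0.0227 to 0.51). With SKP2-1 the log2 fold change was -0.05 for SLC39A4 (adjusted p = 0.945) and -0.10 for SLC39A13 (adjusted p = 0.818), and neither passed. Without both NC replicate 1 and SKP2-2 replicate 3, the SKP2-1 value of SLC39A4 changed sign to 0.49 and passed (adjusted p = 0.000255). Between the siRNAs the difference was 0.77 for SLC39A4 (adjusted p = 0.176) and 0.60 for SLC39A13 (adjusted p = 0.153), and both passed without NC replicate 1 at the same size (adjusted p = 0.0339 and 0.044). SLC39A2, SLC39A5 and SLC39A12 had 4, 12 and 3 counts in all libraries together.

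**Figure D4:**
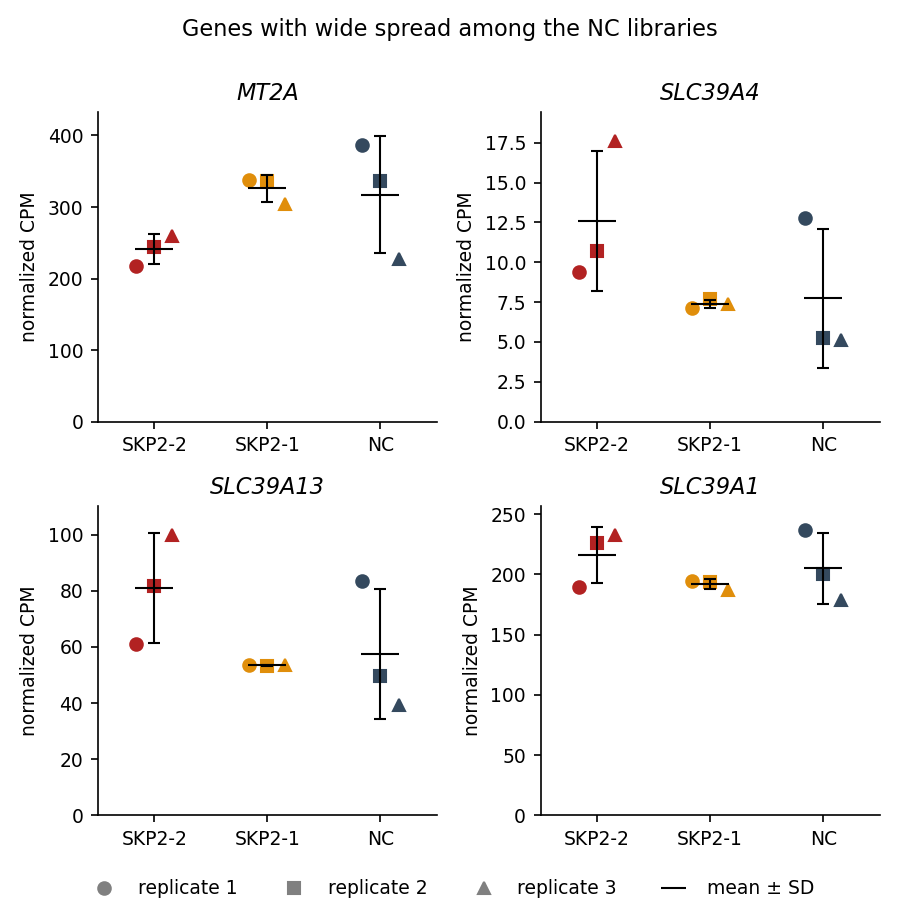
Normalized CPM (y axes, each from 0) in every library of SKP2-2, SKP2-1 and NC for MT2A, SLC39A4, SLC39A13 and SLC39A1, with bars for the mean ± SD of 3 libraries. SLC39A13 runs from 61.0 to 100 CPM with SKP2-2, from 53.3 to 53.6 CPM with SKP2-1 and from 39.4 to 83.4 CPM in NC.

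By TPM (transcripts per M, from counts divided by the merged exon length in GENCODE 29), MT2A and SLC39A7 led the set. That length joins the exons of all annotated transcripts of a gene. For MT2A and MT1X it was 1299 and 1773 bases, the whole span of the gene, so it can exceed the length of the RNA present. The order of the genes by TPM depends on these lengths. MT2A had 783 ± 66.7 TPM with SKP2-2, 1007 ± 67.4 TPM with SKP2-1 and 997 ± 278 TPM in NC (SD, n = 3 each). SLC39A7 had 542 ± 19.0 TPM with SKP2-2, 484 ± 4.10 TPM with SKP2-1 and 489 ± 16.9 TPM in NC. In NC, SLC39A1 (247 ± 41.7 TPM) and MT1E (206 ± 7.75 TPM) lay within 1 SD of each other, as did SLC39A6 (98.4 ± 3.82 TPM), SLC39A14 (94.5 ± 4.10 TPM) and SLC39A9 (94.0 ± 6.79 TPM). SLC30A1 was the most abundant exporter in NC, at 60.2 ± 2.66 TPM, and with SKP2-1, at 85.9 ± 1.65 TPM. With SKP2-2 it had 22.3 ± 1.74 TPM, below SLC30A9 (54.5 ± 1.74 TPM), SLC30A6 (40.1 ± 0.686 TPM), SLC30A7 (33.1 ± 1.63 TPM) and SLC30A5 (32.3 ± 0.364 TPM). MTF1 had 11.0 ± 0.546 TPM with SKP2-2, 29.8 ± 0.582 TPM with SKP2-1 and 27.2 ± 1.56 TPM in NC.

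**Figure D5:**
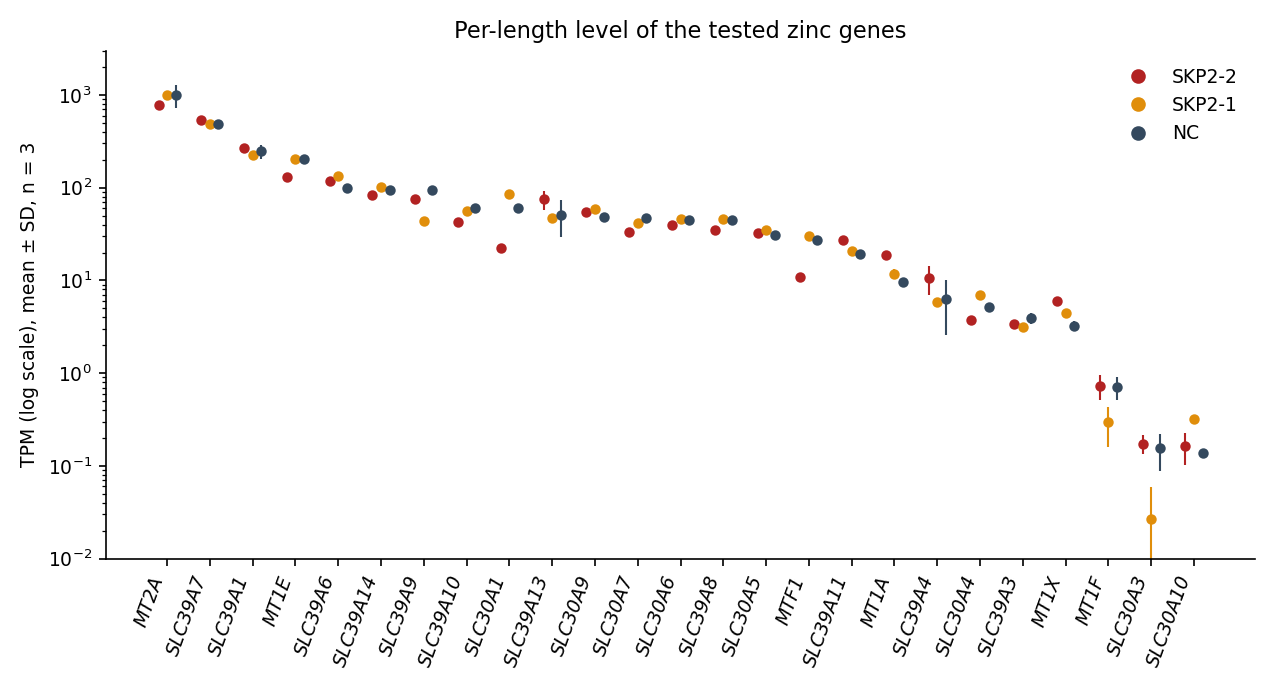
Mean ± SD TPM of 3 libraries (y axis, log scale) in SKP2-2, SKP2-1 and NC for the 25 tested genes, ordered by their NC level; the lower SKP2-1 bar of SLC30A3 runs below the axis. The NC levels run from 997 TPM for MT2A down to 0.138 TPM for SLC30A10.

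Other genes of zinc and metal handling were read from further lists, beside the background of 25.2% higher and 24.1% lower with SKP2-2 and 25.0% higher and 20.5% lower with SKP2-1. Of 8 tested genes among 16 further zinc and metallothionein genes, none rose and 2 fell with SKP2-2, and 1 rose and 1 fell with SKP2-1. SLC11A2, the divalent metal transporter DMT1, averaged 25.3 CPM with SKP2-2, 54.5 CPM with SKP2-1 and 69.0 CPM in NC, and fell with each siRNA (log2 fold changes -1.45 with SKP2-2 and -0.34 with SKP2-1). MT3, MT4, MT1B and MT1L had 0 counts. Of 12 tested genes of the copper list, of 13, 4 rose and 4 fell with SKP2-2, and 5 rose and 1 fell with SKP2-1. That list included MOCS1, a gene of molybdenum cofactor synthesis, which passed with neither siRNA (0.01 with SKP2-2 and -0.02 with SKP2-1). The copper exporter gene ATP7B rose (0.29 with SKP2-2 and 0.59 with SKP2-1), as did the transporter gene SLC31A2 (0.27 with SKP2-2 and 0.52 with SKP2-1), and COX17, a copper chaperone of mitochondria, fell (-0.38 with SKP2-2 and -0.37 with SKP2-1). The 11 tested genes of the heavy metal and oxidant response, of 12, gave 3 higher and 2 lower with SKP2-2, and 5 higher and 2 lower with SKP2-1. HMOX1, which degrades heme, rose (0.59 with SKP2-2 and 0.62 with SKP2-1), as did GCLC of glutathione synthesis (0.15 with SKP2-2 and 0.55 with SKP2-1), and the chaperone gene HSPA8 fell (-0.34 with SKP2-2 and -0.15 with SKP2-1). Of 9 tested genes for secreted and cell-surface zinc enzymes, of 12, 5 rose and 1 fell with SKP2-2 and 9 rose with SKP2-1. Those that rose with each siRNA included the alkaline phosphatase ALPP (0.98 with SKP2-2 and 0.74 with SKP2-1), the carbonic anhydrase CA9 (2.64 with SKP2-2 and 0.70 with SKP2-1), and the metalloproteinases MMP14 (0.52 with SKP2-2 and 0.92 with SKP2-1) and ADAM17 (0.26 with SKP2-2 and 0.37 with SKP2-1). Of the 8, 12, 11 and 9 tested genes of these lists, 4 in all fell with SKP2-2 and rose with SKP2-1. Of all tested genes, 4.39% did so. These 4 were chosen here after their values were seen. They were the copper transporter gene ATP7A (-0.27 with SKP2-2 and 0.33 with SKP2-1), the copper chaperone gene CCS (-0.39 with SKP2-2 and 0.22 with SKP2-1), the thioredoxin reductase gene TXNRD1 (-0.75 with SKP2-2 and 0.29 with SKP2-1) and ENPP1 (-0.76 with SKP2-2 and 0.81 with SKP2-1). The median log2 fold changes of the zinc enzyme list were 0.14 with SKP2-2 and 0.70 with SKP2-1. Those of the further zinc and metallothionein genes were 0.03 and 0.02, and those of the copper list -0.03 and 0.11. The heavy metal and oxidant genes gave 0.04 and 0.03, and all tested genes 0.03 and 0.02, each with SKP2-2 first. The lists were chosen with earlier results of these data known.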

How the data were processed

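The authors deposited 1 file per library with raw read counts per Ensembl gene. The submitters' processing notes name HTSeq 0.6.1, STAR, DESeq2 1.16.1, FastQC 0.11.2 and Trim Galore 0.4.1, with no role or order. Genome build, annotation and strand setting are not given in the sources used here. Summary lines (5.34 to 5.92% of reads in no gene, 3.87 to 3.97% ambiguous, 0 multiply aligned) were left out. Of 58395 identifiers, 57754 took a symbol from the supplied table and 521 from GENCODE 29.

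Counts were analysed in R 4.3.3 with edgeR 4.0.16: filterByExpr (minimum count 10, total 15), TMM scaling and a robust quasi-likelihood fit over all 9 libraries, with no term but the group. Tests were two-sided, adjusted over 16575 genes at 0.05, and were tested on simulated data. Genes that passed at 2 CPM or more, MTF1 and SLC39A7 are given by library, the others by range, except MT2A, SLC39A4 and SLC39A13, given by library after their spread was seen; from further lists, up to 4 genes called alike with each siRNA. The 95% intervals use the fit's SE, and the limit at 0 counts is 3 counts. The genes and lists were chosen with earlier results of these data known. Alternatives were other scalings, filters, DESeq2 1.42.0, a replicate block, fewer groups and left-out libraries.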

Additional observations from a re-analysis of the deposited data

Results flagged for a closer look

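For 3 genes, the level differed from NC in opposite directions with the siRNAs and also differed between them, each by edgeR's quasi-likelihood test. The log2 difference, SKP2-2 minus SKP2-1, was -2.02 for SLC30A1 (adjusted p = 6.83e-11), -0.95 for SLC30A4 (adjusted p = 1.12e-06) and -0.36 for SLC39A14 (adjusted p = 3.9e-05). All 3 were lower in 3 of 3 SKP2-2 libraries and higher in 3 of 3 SKP2-1 libraries than in every NC library. The rise of SLC39A14 with SKP2-1 was lost in 10 of 17 alternatives, with DESeq2, RLE scaling and the replicate block among them. Of all tested genes, 4.39% were called lower with SKP2-2 and higher with SKP2-1.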

How the results depend on the processing

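Across 17 alternatives, the numbers of genes of the set called were within 1.5 times of those reported except for those lower with SKP2-1 against NC, which were 2 in place of 4 with a filter of 1 CPM in at least 3 libraries and with DESeq2. When each library was left out in turn, this number lay between 1 and 5, with 2 without SKP2-1 replicate 2 and 1 without SKP2-1 replicate 3. The calls of MTF1 and MT1E with SKP2-2, of SLC39A9, SLC30A1 and SLC30A4 with each siRNA held in every alternative, with log2 fold changes of -1.43 to -1.30 for MTF1, -0.81 to -0.69 for MT1E and, for SLC30A1, -1.59 to -1.44 with SKP2-2 and 0.46 to 0.58 with SKP2-1. SLC39A4 with SKP2-1 changed sign to 0.49 (adjusted p = 0.000255) without both SKP2-2 replicate 3 and NC replicate 1 and lay between -0.27 and 0.50 with single libraries left out; the cause was not tested. Fitting SKP2-1 and NC alone gave 3341 genes higher and 4255 lower in place of 4150 and 3398. Same-numbered libraries of SKP2-2 and NC correlated at -0.498, 0.005 and -0.455 in their deviations from the group mean, so the numbers were not taken as pairs. SKP2-2 replicate 3 correlated with NC replicate 1 at 0.502, and SKP2-2 replicate 1 with NC replicate 3 at 0.453. The remaining differently numbered pairs of these groups lay between -0.197 and 0.191. With the replicate block, 4 genes of the set were higher and 10 lower with SKP2-2, and 7 and 3 with SKP2-1. At low counts (MT1F, SLC30A3, SLC30A10), depth limits the precision.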
